A study of Mus musculus with 4 samples.

Results

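Dimethylation of histone H3 at lysine 79 (H3K79me2) was examined over 10 mouse genes that activate fatty acids or store them as neutral lipid, of 21887 protein-coding genes measured. The genes were chosen by name for their function, and with earlier results of these data known. They are Acsl1, Acsl3, Acsl4 and Acsl5 (acyl-CoA synthetases), Lpin1, Dgat1, Dgat2 and Soat1 (synthesis of diglyceride, triglyceride and cholesterol ester), Pnpla2 (triglyceride lipase) and Plin2 (lipid droplet coat). The share of each gene body under H3K79me2 peaks was compared between an inhibitor and a control library. It was 25 percentage points or more higher in the inhibitor library at 6 of the 10, against 30.1% of all coding genes. These were Acsl3, Acsl4, Acsl5, Dgat1, Soat1 and Pnpla2, whereas Acsl1, Dgat2, Lpin1 and Plin2 differed by less than that. At Dgat1 the difference rests on peaks with q above 0.05, and at Pnpla2 on a peak with 21.0% of its length in the gene.

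The cells were double negative thymocytes grown in culture from C57BL/6 haematopoietic stem cells (HSCs) on OP9-DL1 stromal cells, which present the Notch ligand DL1, in αMEM with the cytokines Flt-3L and IL-7, and harvested at the DN3 stage, when the T cell receptor β gene is rearranged. The control cells received DMSO, the vehicle, and the inhibitor cells A939572, which blocks SCD1, the desaturase that makes oleic acid from stearic acid; the sources used here give neither dose nor number of animals. H3K79me2 was mapped by chromatin immunoprecipitation and sequencing (ChIP-seq) in 1 library per condition, and the 2 matching input libraries were not analysed here. Differences between the conditions therefore have no replicate error and no p-value, and each one compares 2 libraries. In bulk chromatin, more marked cells and more of the mark per cell cannot be told apart.

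Long-chain fatty acids enter metabolism only after an acyl-CoA synthetase has joined them to coenzyme A. The acyl-CoA is then oxidised, built into membranes, or esterified to triglyceride or cholesterol ester, which cells keep in droplets under a perilipin coat until lipases release the fatty acid again. Oleic acid, the product of SCD1, is a favoured substrate for both esters. H3K79me2 is laid down by DOT1L behind elongating RNA polymerase and usually lies as a broad domain over the 5′ part of transcribed genes.

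The values are the authors' broad peak calls. The covered percent is the share of a RefSeq gene body (build mm10) that lies under peaks of a list, and a gene is called marked at 50% or more. The peaks carry a fold enrichment (the authors' ratio to local background, a mean over the peak) and a −log10 q, and a peak is called strong here at q of at most 0.05. The control list held 124962 peaks, of which 0.643% were strong, and the inhibitor list 35018, of which 18.6% were strong; the total covered lengths were 234.8 and 233.6 Mb. The read depth is unknown, so fold and q only describe peaks within a list. Strong peaks covered 11.1 Mb in the control list and 153 Mb in the inhibitor list. Counts of strong peaks are therefore not matched between the lists, and the part of depth in them was not tested. Of 8 DN3 T-lineage markers (such as Bcl11b, Tcf7 and Il2ra), 5 were marked with control peaks and 7 with inhibitor peaks, at covered percents of 0 to 94.0% and 47.1 to 100%. Cd3e held no control peak. Of 12 markers of feeder stroma and adipocytes, 0 and 1 were marked, over ranges of 0 to 37.7% and 0 to 59.0%. Cebpa, Cidec, Lpl, Col1a1, Col3a1 and Pdgfra were at 0 in both lists. The stromal genes Pdgfrb (9.18% and 45.3%) and Thbs1 (11.8% and 59.0%) were covered further in the inhibitor list, by strong peaks; the part of stromal chromatin in the lipid gene values was not tested. Of 6 myeloid markers only Cd68 was marked, in the inhibitor list alone, and none of 4 B-lineage markers was marked in either list.

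Among the 10 lipid genes the control covered percent ran from 0 to 39.1% with a median of 7.43%, and the inhibitor covered percent from 0 to 85.7% with a median of 47.3%. Control peaks marked none of the 10, against 5.47% of all coding genes, and inhibitor peaks marked 5, against 26.1%. The 6 genes higher by 25 points or more in the inhibitor list compare with 30.1% of all coding genes, and none was higher by that much in the control list, against 3.07%. The median difference was 34.7 points over the 10 genes and 0 points over all coding genes, many of which held no peak. A higher covered percent in the inhibitor list was thus common in these libraries and is not particular to lipid genes.

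**Figure D1:**
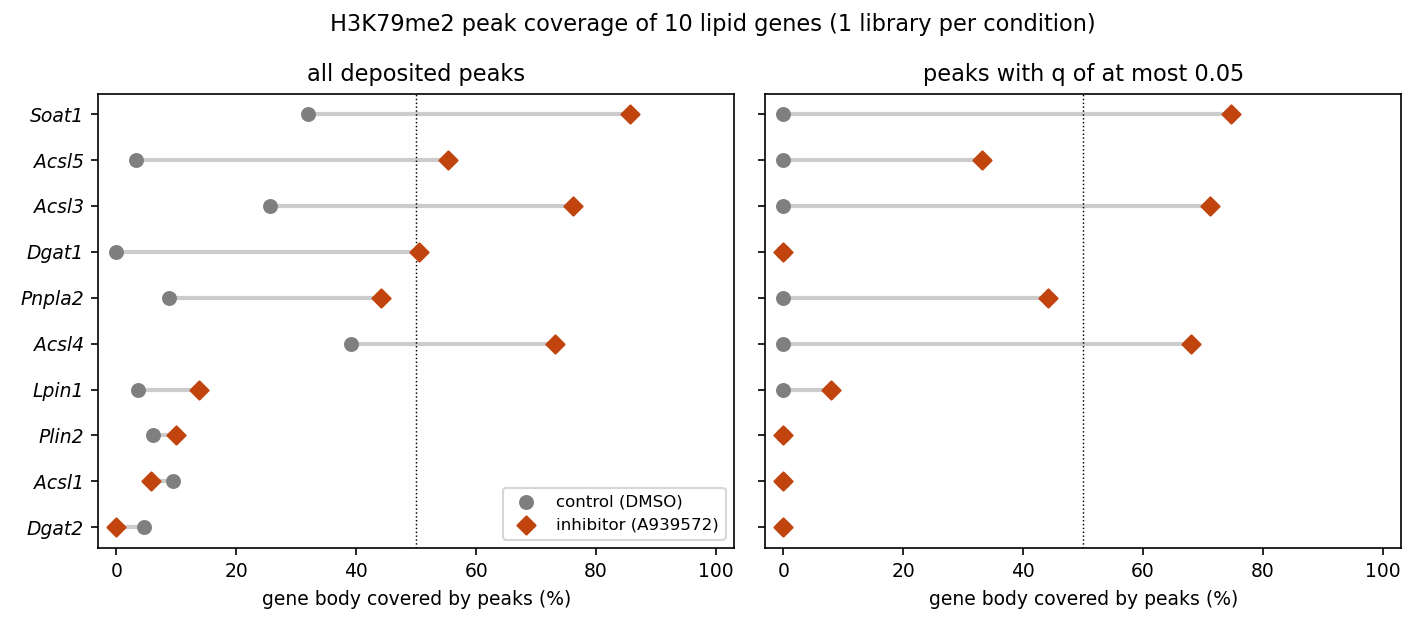
Percent of each gene body (x axis) under peaks in the control (grey circles) and inhibitor (orange diamonds) libraries, 1 library each, for all peaks (left) and strong peaks with q of at most 0.05 (right). The dotted line is the 50% at which a gene is called marked. Soat1 reached 85.7% in the inhibitor library, and at the right every control value is 0, hidden behind the diamond for Dgat1, Plin2, Acsl1 and Dgat2.

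No control peak on these genes was strong. The 27 control peaks on these genes, spread over 9 of them, were all weak. Their fold enrichments were 1.54 to 2.06 and their −log10 q 0 to 0.467. Every control peak on Acsl1, Acsl5, Dgat2, Lpin1 and Plin2 had a −log10 q of 0. The q values therefore give no evidence that the control coverage of these genes is H3K79me2. A strong control peak was present on 3.92% of all coding genes. Of the 23 inhibitor peaks, likewise on 9 genes, 6 were strong, 1 each on Acsl3, Acsl4, Acsl5, Soat1, Lpin1 and Pnpla2, and a strong peak was present on 34.7% of all coding genes. These 6 peaks were 9.35 to 51.5 kb wide with fold enrichments of 2.47 to 4.32. The 17 weak inhibitor peaks had a median width of 1.90 kb, folds of 1.44 to 2.08 and −log10 q of 0 to 1.06. With strong peaks alone, Acsl3, Acsl4 and Soat1 were marked in the inhibitor list (background 19.6%) and none in the control list (1.33%), and 5 genes stayed higher by 25 points or more in the inhibitor list (26.3%), none in the control list (0%); Dgat1 dropped from the count.

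Most of the length under weak control peaks was also covered in the inhibitor list. Of the 72.3 kb covered on the 10 genes in the control list, 82.6% was also covered in the inhibitor list, against 54.3% over the bodies of all coding genes. Conversely, 31.8% of the 187 kb covered in the inhibitor list was also covered in the control list (32.5% over all coding genes). These are shares of covered length, and Acsl4 alone gave 28.5 kb of the control length. Of the 59.7 kb covered in both lists, Acsl3, Acsl4 and Soat1 gave 12.4, 28.5 and 12.4 kb. Inhibitor peaks covered 76.2, 73.1 and 85.7% of these genes, and such wide coverage by itself raises the share. How far it accounts for the gap to all coding genes was not tested. By gene the share of control length was 0% at Dgat2, 9.55% at Acsl1 and 43.5% at Lpin1. It was 80.8% or more at the other genes with a control peak.

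The acyl-CoA synthetases split into 3 genes with a domain at the 5′ end and 1 without. Acsl3, whose product sits on the endoplasmic reticulum and young lipid droplets (chromosome 1, 78657825 to 78707743, plus strand), was covered over 25.6% in the control library and 76.2% in the inhibitor library. Its control peaks were 4, all weak, and the widest spanned 7.40 kb across the start with a fold of 1.84. The inhibitor list had 1 strong peak of 36.9 kb there (78656438 to 78693347), with a fold of 3.47 and a −log10 q of 6.28. That peak began 1.39 kb before the start and ended 35.5 kb into the gene. Both libraries covered the whole of the first 5 kb, so the 50.6 points by which the body differed lay further in: from 5 to 10 kb the covered percent was 30.9 and 100%, and from 20 to 40 kb 8.50 and 79.9%. Utp14b, a ribosome biogenesis gene that shares the start of Acsl3, lies under the same peaks (67.0% and 100%), so their coverage cannot be told apart there. In the bases of Acsl3 outside Utp14b the covered percents were 15.5% and 70.4%.

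Acsl4, the synthetase that prefers arachidonic acid and feeds polyunsaturated fatty acid into membrane lipid (chromosome X, 142317993 to 142390802, minus strand), had the highest control value of the 10 genes. It was covered over 39.1% in the control library and 73.1% in the inhibitor library, a difference of 34.0 points. The control peak that gave most of this spanned 25.8 kb (142363740 to 142389546). It was the widest control peak on the 10 genes and wider than 99.8% of the control list, yet weak, with a fold of 2.06 and a −log10 q of 0.467. It began 0.989 kb downstream of the listed start. The strong inhibitor peak spanned 51.5 kb (142341270 to 142392760) with a fold of 4.32 and a −log10 q of 7.54, the highest fold among these genes. It covered the start and contained the whole control peak. Between 5 and 20 kb both libraries covered every base of Acsl4, and the lists parted around the start (80.2 and 100% in the first 5 kb) and beyond 20 kb (47.3 and 100% from 20 to 40 kb).

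Acsl5, a synthetase of the endoplasmic reticulum and mitochondrial outer membrane (chromosome 19, 55251861 to 55296628, plus strand), was nearly bare in the control library. It was covered over 3.20% by 1 weak control peak of 1.43 kb and over 55.2% in the inhibitor library, 52.0 points more. The strong inhibitor peak spanned 14.8 kb (55253628 to 55268469), with a fold of 2.94 and a −log10 q of 3.08, and began 0.259 kb downstream of the listed start. A second, weak inhibitor peak of 8.45 kb followed, with a −log10 q of 0.0796. Strong peaks alone covered 33.2% of Acsl5, below the 50% line. Unlike Acsl3 and Acsl4, it had no control coverage in its first 5 kb, where the inhibitor library covered 94.8%.

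Acsl1, the main synthetase of fat and heart (chromosome 8, 46471037 to 46536051, plus strand), had no such domain in either library. It was covered over 9.44% in the control library and 5.83% in the inhibitor library, a difference of −3.60 points, by 4 scattered weak peaks in each list. These peaks were 0.490 to 1.96 kb wide, and the highest −log10 q among them was 0.769. Only 9.55% of the control-covered length of Acsl1 was also covered in the inhibitor list, against 96.7% at Acsl3, 100% at Acsl4 and Acsl5 and 83.9% at Soat1. Neither of its 2 listed starts was covered.

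**Figure D2:**
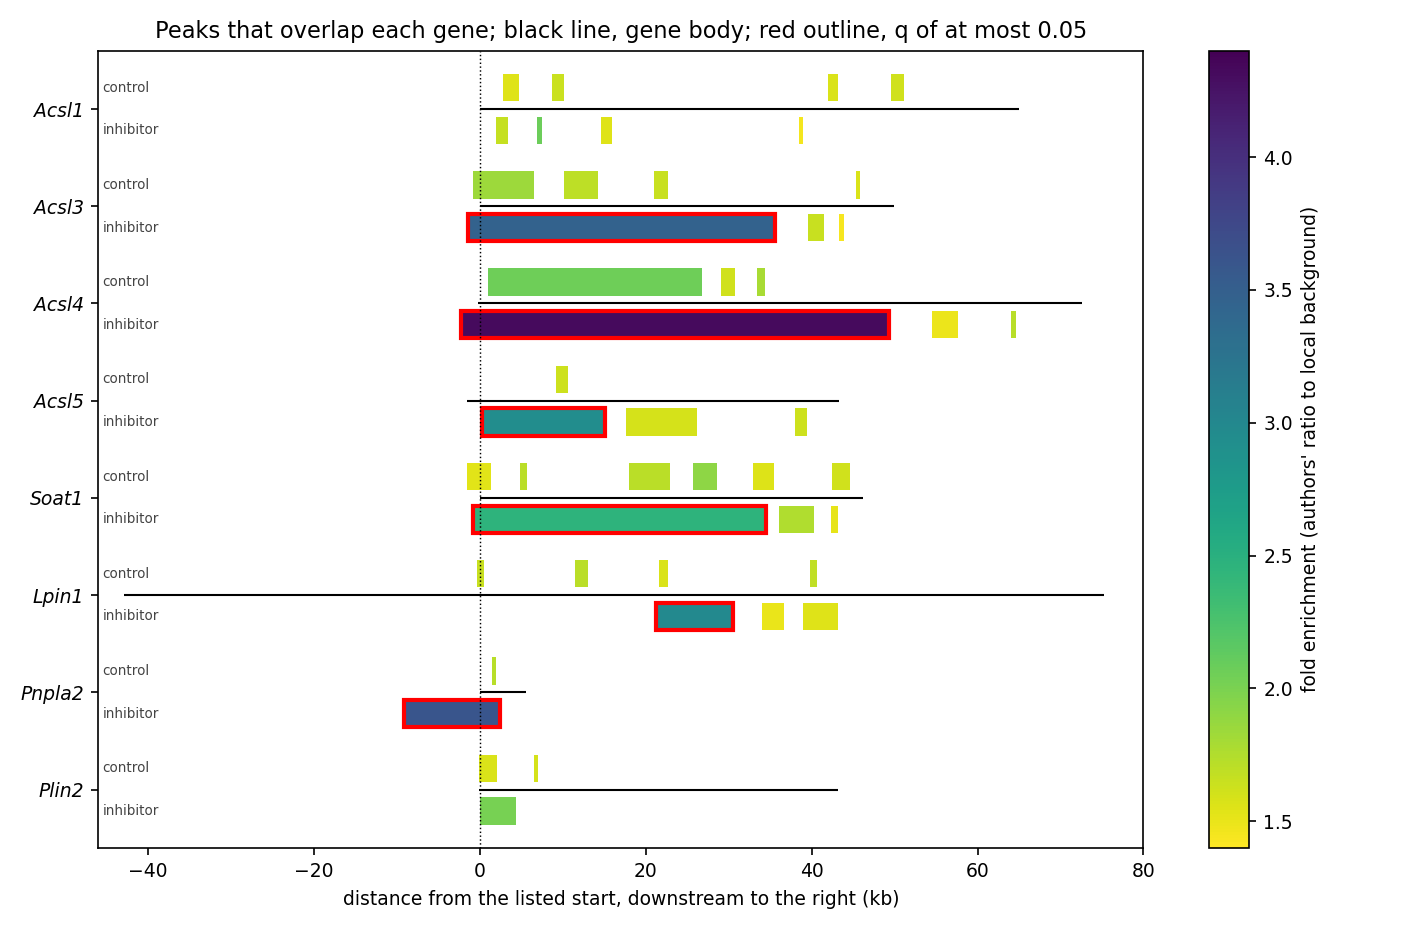
Each peak that overlaps 1 of the 8 genes with a listed start, drawn by distance from the start in kb (x axis), control above and inhibitor below the black line that marks the gene body; fill colour gives the fold enrichment and a red outline marks q of at most 0.05. The outlined inhibitor domains of Acsl3, Acsl4, Acsl5 and Soat1 begin at or near the start, that of Lpin1 lies 21.2 to 30.5 kb inside, and that of Pnpla2 comes from upstream.

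The esterification genes differed among themselves. Soat1 encodes the enzyme that esterifies cholesterol with long-chain acyl-CoA, oleoyl-CoA foremost (chromosome 1, 156428108 to 156474328, minus strand). It was covered over 32.0% in the control library and 85.7% in the inhibitor library, and its 53.7 points were the largest difference of the 10. The control coverage came as 6 separate weak peaks of 0.835 to 5.03 kb with folds of 1.54 to 1.91. In the inhibitor list 1 strong peak of 35.3 kb (156439853 to 156475184) ran from 0.856 kb before the start to 34.5 kb inside, with a fold of 2.47 and a −log10 q of 2.52. This was the weakest of the 6 strong peaks by both measures, and it is lost at −log10 q of at least 5 or fold of at least 3. In the first 5 kb of Soat1 the covered percents were 29.0 and 100%.

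Dgat1 and Dgat2 encode unrelated enzymes for the same last step of triglyceride synthesis, and neither held a strong peak. Dgat1 (chromosome 15, 76502012 to 76512021) lacked any control peak, and inhibitor peaks lay over 50.4% of it, just above the 50% line. Its 2 inhibitor peaks spanned 2.88 and 2.17 kb with folds of 1.83 and 1.73 and −log10 q of 0.404 and 0.535. The call at Dgat1 therefore rests on weak peaks alone. Dgat2 (chromosome 7, 99153663 to 99182713) had a control coverage of 4.61% from 2 weak peaks of 0.913 and 0.427 kb. It held no peak in the inhibitor library and was the only gene of the 10 with none there.

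Lpin1 encodes lipin-1, the phosphatase that makes diglyceride from phosphatidate (chromosome 12, 16535669 to 16653903, minus strand). It was covered over 3.56% in the control library and 13.8% in the inhibitor library, 10.2 points more. The gene is annotated over 118 kb, while its listed start lies at 16610966, well inside that span. The single strong inhibitor peak spanned 9.35 kb (16580424 to 16589768), 21.2 to 30.5 kb downstream of this start, with a fold of 2.99 and a −log10 q of 3.32. From the start to 20 kb downstream no base was covered in the inhibitor library, and from 20 to 40 kb the covered percents were 6.19 and 65.3%. In these libraries Lpin1 was the 1 gene of the 6 with a strong peak whose domain lay neither at nor within 1 kb of the listed start. Only this start of Lpin1 is listed, so whether the domain lies at another start could not be examined. From the listed start to the end of the gene the covered percents were 5.13% and 21.6%.

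Pnpla2 encodes adipose triglyceride lipase, which starts the breakdown of stored triglyceride (chromosome 7, 141455188 to 141460743, plus strand, 5.56 kb). It was covered over 8.75% in the control library by 1 weak peak of 0.486 kb and over 44.2% in the inhibitor library. The inhibitor peak there was strong, with a fold of 3.61 and a −log10 q of 10.4, the highest −log10 q on these genes. It spanned 11.7 kb (141445985 to 141457640), began 9.20 kb upstream of Pnpla2, covered the whole of the ribosomal protein gene Rplp2 and part of Pidd1, and had only 21.0% of its length in Pnpla2. Rplp2 held a strong peak in the control library too (1.71 kb, fold 2.32, −log10 q 2.12), which did not reach Pnpla2. When peaks were given only to genes that contain their centre, Pnpla2 held no inhibitor coverage, and its difference turned from 35.4 to −8.75 points.

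Plin2 encodes perilipin 2, the droplet coat protein found in most cell types (chromosome 4, 86626910 to 86670217, minus strand). Over the body the libraries were close, 6.12% in the control and 10.01% in the inhibitor library. At the start they differed more: in the first 5 kb the covered percents were 42.0 and 85.9%, a difference of 43.8 points. The inhibitor peak there spanned 4.33 kb, with a fold of 2.01 and a −log10 q of 1.06, short of the limit for a strong peak, and the control peak spanned 2.26 kb with a fold of 1.57. Both covered the start of Plin2 and ended within 5 kb of it, so a measure over the whole body of 43.3 kb gives this gene a low value in both lists.

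**Figure D3:**
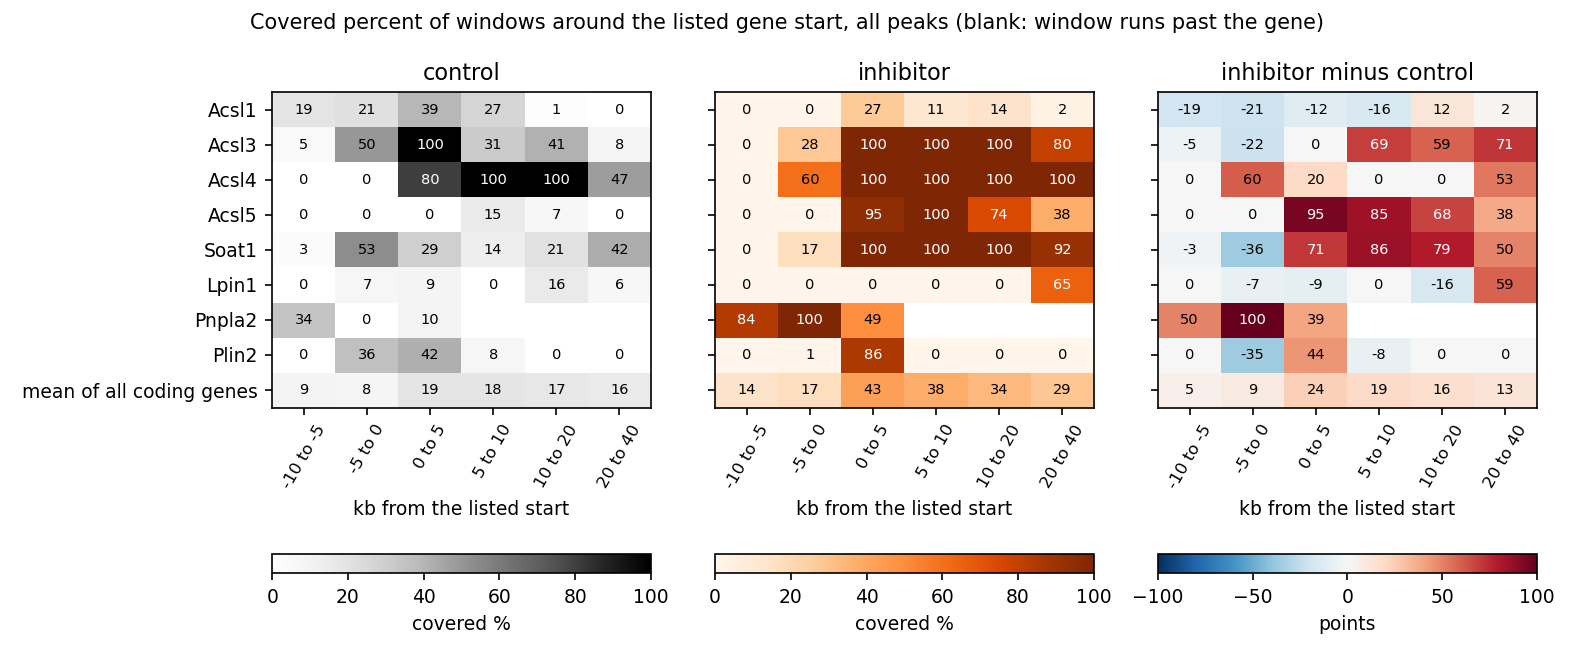
Covered percent, all peaks, in windows at the distances from the listed start given on the x axis (kb, negative upstream), for 8 genes and the mean of coding genes (17492 upstream, and downstream those that contain the window, from 13246 in the first 5 kb to 4566 from 20 to 40 kb), in the control (left) and inhibitor (middle) libraries and as the difference in points (right). Acsl3 was covered throughout the first 5 kb in both libraries, by weak peaks alone in the control library, and differed further downstream. Acsl4 differed around the start and beyond 20 kb, while Acsl5 and Soat1 differed from the first 5 kb on.

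The position of the added coverage therefore took several forms. Over the 4566 coding genes that reach 40 kb beyond their listed start, the mean covered percent in the first 5 kb was 22.4% in the control and 44.1% in the inhibitor library, and from 20 to 40 kb 15.6 and 28.8%, so the mean difference was 21.7 points near the start and 13.2 points further in. Acsl5, Soat1 and Plin2 followed that order, with 94.8, 71.0 and 43.8 points in the first 5 kb and 37.8, 49.5 and 0 points from 20 to 40 kb. Acsl3, Acsl4 and Lpin1 had the reverse order, with 0, 19.8 and −9.12 points near the start and 71.4, 52.7 and 59.1 points from 20 to 40 kb. So did Acsl1 on a smaller scale, with −11.96 and 2.45 points. At Acsl3 and Acsl4 that order rests on weak control peaks: strong peaks alone covered none of either window in the control library, and in the inhibitor library 100% near the start of both and 77.6 and 100% from 20 to 40 kb. At Acsl1 and Plin2 the values rest on weak peaks alone, since strong peaks covered none of either window in either library. Upstream of the start, from −5 kb to 0, the difference was negative at Acsl1, Acsl3, Soat1, Lpin1 and Plin2, from −7.10 to −35.9 points, and positive at Acsl4 (60.4 points) and Pnpla2 (100 points); the mean over 17492 coding genes was 9.28 points. The negative values too come from weak control peaks, since strong control peaks covered none of this window at any of these genes. With strong peaks alone no gene could therefore be lower there in the inhibitor library. Strong inhibitor peaks covered 27.7, 44.5, 17.1 and 100% of the window at Acsl3, Acsl4, Soat1 and Pnpla2.

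The RefSeq promoter table used here gave a start for 8 of the 10 genes, all but Dgat1 and Dgat2. A strong inhibitor peak covered the start of Acsl3, Acsl4, Soat1 and Pnpla2, 4 of the 8, against 26.5% of 17492 coding genes with a listed start. No strong control peak covered a start (background 1.72%). With weak peaks included, 4 starts were covered in the control library (Acsl3, Soat1, Lpin1 and Plin2; background 8.64%) and 5 in the inhibitor library (Acsl3, Acsl4, Soat1, Pnpla2 and Plin2; background 31.0%). The start of Lpin1 was covered in the control library only, by a peak with a −log10 q of 0.

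The promoters of the 4 genes whose start lay under a strong inhibitor peak are shown. No strong control peak covered these starts, but such a peak covered a start at only 1.72% of coding genes with a listed start. Each promoter runs from 250 bases before to 50 after the listed start (RefSeq, GRCm38.p6, written in the direction of transcription). Capitals mark letters searched on both strands: the GC box GGGCGG, the CCAAT box CCAAT, the E-box CACGTG and the TATA box TATAAA; neighbouring matches may overlap. They lie at chr1:78657575-78657874 (plus strand, Acsl3), chrX:142390486-142390785 (minus, Acsl4), chr1:156474279-156474578 (minus, Soat1) and chr7:141454938-141455237 (plus, Pnpla2).
Acsl3: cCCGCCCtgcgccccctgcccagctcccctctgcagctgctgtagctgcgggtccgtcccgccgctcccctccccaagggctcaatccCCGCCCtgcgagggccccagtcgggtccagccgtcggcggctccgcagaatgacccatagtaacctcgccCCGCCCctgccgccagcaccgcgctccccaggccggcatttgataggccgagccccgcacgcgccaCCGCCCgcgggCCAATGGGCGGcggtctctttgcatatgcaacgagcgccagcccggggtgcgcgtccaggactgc
Acsl4: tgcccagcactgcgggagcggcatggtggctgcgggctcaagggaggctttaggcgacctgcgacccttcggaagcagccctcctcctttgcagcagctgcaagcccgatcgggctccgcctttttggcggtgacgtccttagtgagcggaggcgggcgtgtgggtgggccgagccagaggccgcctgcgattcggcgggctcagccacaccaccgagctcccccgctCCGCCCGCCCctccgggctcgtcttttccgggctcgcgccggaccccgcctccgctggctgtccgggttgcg
Soat1: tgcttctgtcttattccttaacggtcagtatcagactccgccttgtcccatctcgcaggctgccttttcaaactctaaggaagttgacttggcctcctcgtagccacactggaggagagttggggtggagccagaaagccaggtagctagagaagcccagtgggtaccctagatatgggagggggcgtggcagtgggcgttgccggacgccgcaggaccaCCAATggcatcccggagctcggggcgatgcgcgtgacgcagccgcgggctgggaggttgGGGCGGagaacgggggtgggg
Pnpla2: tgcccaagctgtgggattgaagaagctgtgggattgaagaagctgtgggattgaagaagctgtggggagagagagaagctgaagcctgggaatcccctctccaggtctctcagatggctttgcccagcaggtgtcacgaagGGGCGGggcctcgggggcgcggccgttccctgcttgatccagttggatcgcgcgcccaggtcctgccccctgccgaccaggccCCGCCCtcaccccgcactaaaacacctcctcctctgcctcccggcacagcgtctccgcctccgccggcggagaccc

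All 4 held at least 1 GC box, 5 in Acsl3, 2 in Acsl4, 1 in Soat1 and 2 in Pnpla2, and 35.7% of all promoters in the table do. A CCAAT box was found in Acsl3 and Soat1 (37.4% of all promoters). None of the 4 held the E-box (7.15%) or the TATA box (13.6%). They had 33, 33, 19 and 18 CpG pairs in 300 bases, against a median of 7 and quartiles of 3 and 20 over all promoters. Soat1 and Pnpla2 thus lay between the quartiles, and Acsl3 and Acsl4 above them. Acsl1, whose starts were not covered in either library, had 30 CpG pairs and 7 GC boxes at its outer start and 4 CpG pairs at its inner one. The promoter of Plin2 held 10 CpG pairs and the only E-box of the group, that of Acsl5 held 9 and that of Lpin1 held 2. These matches describe letters and say nothing of which factor binds.

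A wider list of 53 other genes of fatty acid activation, esterification, lipolysis and droplet formation lay near the background of all coding genes or below it. Control peaks marked none of them (background 5.47%). Inhibitor peaks marked 13, or 24.5% (background 26.1%), and strong ones alone 10, or 18.9% (background 19.6%). In 15, or 28.3% (background 30.1%), the inhibitor list covered 25 points or more beyond the control list, in 0 the reverse held (background 3.07%), and 38 lay within 25 points; 11 held no peak in either list. The median difference was 1.97 points. No gene of the list held a strong control peak (background 3.92%), and 14, or 26.4%, held a strong inhibitor peak (background 34.7%). Of the 15 genes, 12 held such a peak and 3 (Agpat2, Nceh1 and Lipe, named after their values were seen) were covered by weak peaks alone.

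The counts by role are small and are read against the same 30.1% of all coding genes. By role, 2 of 9 genes for acyl-CoA synthesis and transport were higher by 25 points or more in the inhibitor list. These were Slc27a1, a fatty acid transport protein (0 and 61.6%), and Dbi, the acyl-CoA binding protein (0 and 61.3%), which overlaps another coding gene. Their peaks were only just strong, with −log10 q of 1.36 and 1.54. The related synthetases Acsl6 (0 and 2.61%) and Acsbg1 (1.71 and 0%) stayed low in both lists. Of 4 thioesterases, which undo activation, 1 was higher, Acot7 at 13.2 and 69.4%, under a strong peak of 52.0 kb with 92.9% of its length in the gene. Of 17 genes for glycerolipid and sterol ester synthesis, 5 were higher. Lpin2, a paralogue of Lpin1, was covered over 45.1 and 93.0%, with a strong inhibitor peak of 56.9 kb (fold 4.04, −log10 q 10.7), and Agpat1, a lysophosphatidate acyltransferase, over 0 and 56.8%. The Agpat1 peak (−log10 q 3.58) also lies over the coding gene Rnf5. Soat2, the second cholesterol acyltransferase, was covered over 12.03 and 13.99%.

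Of 10 genes for lipid hydrolysis and its regulators, 3 were higher in the inhibitor list. Hilpda, an inhibitor of the lipase that Pnpla2 encodes, was covered over 0 and 100% by a strong peak of 6.00 kb (−log10 q 7.33) with 49.3% of its length in the gene. That peak also lies over the coding gene Fam71f2. Abhd5, the activator of that lipase, stood at 6.10 and 1.70%, and G0s2, another of its inhibitors, held no peak. Of 13 genes for droplet coat and assembly, 4 were higher, among them Plin3, a widely expressed perilipin (0 and 79.4%), and Aup1, a droplet protein of the endoplasmic reticulum (0 and 100%), whose peak of 6.47 kb also lies over 3 other coding genes. Plin3 lay under 2 strong peaks (−log10 q 1.80 and 1.74), of which the first had 6.87% of its length in Plin3 and also lies over Ticam1. The adipocyte droplet genes Plin1 (5.38 and 0%) and Cidec (0 and 0%) held no inhibitor peak, and Plin4, which overlaps the coding gene Hdgfl2, was covered over 0 and 20.3% by 1 weak peak.

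**Figure D4:**
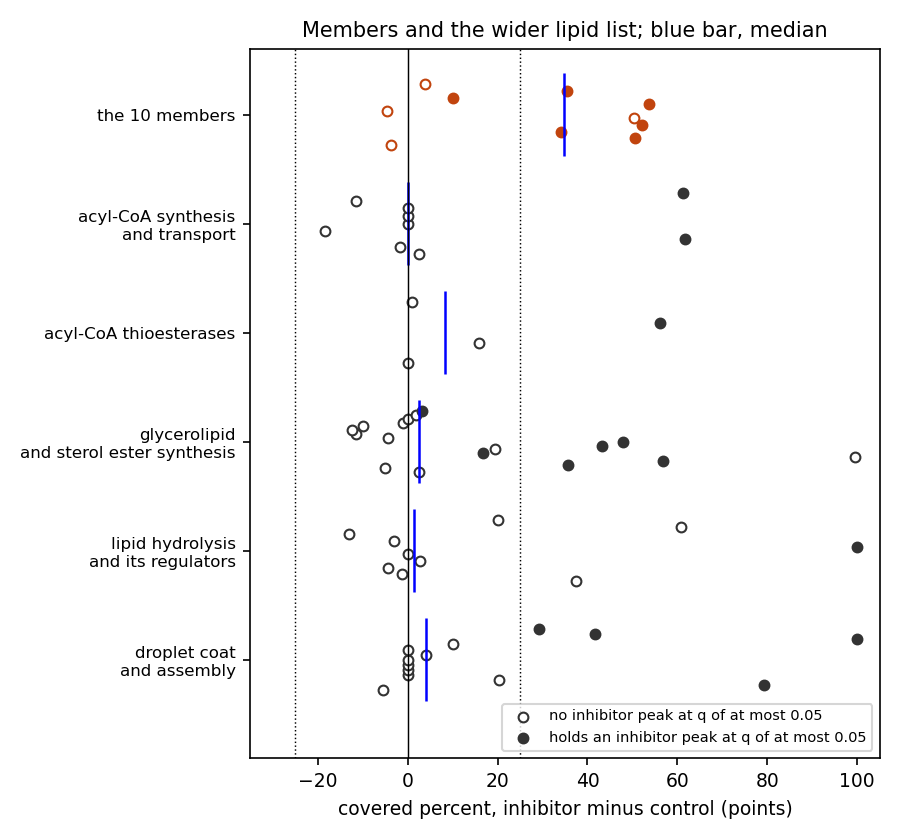
Difference in covered percent, inhibitor minus control (x axis, points), for the 10 genes and for the 53 genes of the wider list by role; filled points hold an inhibitor peak with q of at most 0.05, blue bars are medians and dotted lines mark 25 points in either direction. The median was 34.7 points over the 10 genes, and no gene of either set lies beyond the dotted line on the control side.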

How the data were processed

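H3K79me2 ChIP-seq of 1 control and 1 inhibitor library was analysed from the authors' broad peak lists, called separately per library. The submitters' processing notes name BWA, MACS2 2.1.0 and mm10 but no roles; the caller's options, and whether it used the inputs, are not stated in the sources used here. For every peak the deposited lists give a fold ratio to local background, a −log10 p and a −log10 q (means over the peak), and a deposited score that is the whole part of 10 times −log10 q. Depth is unknown.

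Peaks that touch were merged and intersected with RefSeq gene bodies (GRCm38.p6, the assembly of mm10) of 21887 protein-coding genes, in Python 3.11.15 (numpy 2.4.6, pandas 2.3.3). Genes were called at 50% covered or at a difference of 25 points; no test was possible with 1 library per condition. Strand and start came from RefSeq promoter windows, the outermost where several are listed; for Dgat1 and Dgat2 the first 5 kb was taken as the better covered end. All windows downstream lie wholly inside the gene. The members and lists were chosen with earlier results of these data known. Named genes were all 10 members, the 8 genes of the wider list with the largest difference and a strong peak, and coding genes that share a strong peak with a member; other names serve as examples. Coverage functions were tested on simulated intervals. The alternatives are in the closing section.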

Additional observations from a re-analysis of the deposited data

How the results depend on the processing

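Of 11 alternatives, 9 recompute the differences of single genes, and the body from the listed start was added after the values were seen. Leaving out the first 5 kb of Dgat1 and Dgat2, whose end was chosen by its coverage, 77 of 88 recomputed differences stayed on their side of 25 points; 67 kept their sign, 19 became 0 and 2 turned. The 5 genes marked in the inhibitor list were 3 for peaks at q of at most 0.05, 2 at −log10 q of at least 5 or fold of at least 3, 1 (Soat1) when 80% of the body was required, and 9 when any covered base sufficed, which also gave 9 in the control list in place of 0. In the first 5 kb, 2 genes (Acsl3 and Acsl4) were marked in the control list. The 6 genes higher by 25 points or more in the inhibitor list were 3 (Acsl3, Acsl4 and Pnpla2) at −log10 q of at least 5 or fold of at least 3. Shares of all coding genes for such counts were computed only for all peaks and for peaks at q of at most 0.05. Counts at the other settings therefore have no background and are not read as results about these genes. For the first 5 kb the differences at Acsl3 (0 points) and Acsl4 (19.8) fell short of 25 points and that at Plin2 (43.8) passed it. The 2 that turned were Pnpla2, to −8.75 points with peaks centred in the gene only, and Lpin1, from 10.2 to −9.12 points in the first 5 kb. Leaving out overlapping genes' bases and starting at the listed start changed no call. The former could move only Acsl3 and Lpin1, which overlap another coding gene. The latter could move only Acsl4, Acsl5, Lpin1 and Plin2, whose listed start lies inside the body. For the other genes these outcomes were fixed in advance, and they also count among the 88. Trimming the control list to equal covered length and merging peaks within 1 kb left every difference as it was, and both settings count among the 88. The lists covered 234.8 and 233.6 Mb before the trim, so it removed little and is no check on depth. No paired analysis was possible because each condition has 1 library. Unknown depth limits every weak peak and every comparison of strong peaks between the lists.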
